A study of Mus musculus with 4 samples.

Results

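Ankrd11, Spen, Srrm2 and Rab11fip4 were the sources of 13489 of the 4906138 distinct MILI-bound small RNA sequences listed for mouse testes, or 0.275% of the list. A sequence was assigned to one of the 4 genes when it matched exactly, over its whole length, a GENCODE M21 transcript of that gene and of no other gene on either strand. In all, 13294 of these sequences were sense and 195 were antisense. The 4 genes, of 21951 protein-coding genes searched, were chosen by the low share of their own sequences that began with U, so that share is given here as a description and not as a finding. What could be described beside it was the U content of each transcript, the use made of every base as a 5′ end, and the place of those ends along the messenger RNA.

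The animals were C57BL/6 mice, whose testes were taken at 14 days post partum (dpp), with 2 libraries from Tdrd9-/- mice and 2 from Tdrd9+/- mice, which carry 1 mutant allele. RNA was recovered by immunoprecipitation of MILI (Piwil2), a PIWI protein of male germ cells, and by elution of RNAs of about 28 to 30 nt from a gel. The study asked how these RNAs differ without TDRD9, an RNA helicase that works with the PIWI protein MIWI2. All 4 libraries were pooled in 1 list that names no library and holds no read counts, so no genotype was compared, the depth is unknown, and no error between replicates can be given.

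PIWI proteins bind small RNAs called piRNAs, which guide them to transposon transcripts. Precursor transcripts are cut into primary piRNAs along their length, and a PIWI protein holds the first base of the piRNA in a pocket that prefers U, which leaves many piRNAs with a 5′ U. Before the pachytene stage of meiosis many MILI-bound piRNAs come from ordinary messenger RNAs, often from the 3′ untranslated region (UTR). A second route, called ping-pong, cuts opposite strands so that the 5′ ends overlap by 10 nt and a partner carries A at position 10. Every sequence in the list is counted once here however often it was read, so a number of sequences measures how many different molecules were seen and not how abundant they were.

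ANKRD11 is a large chromatin regulator with ankyrin repeats. SPEN is a large RNA-binding corepressor that takes part in X chromosome silencing. SRRM2 is a serine- and arginine-rich scaffold protein of nuclear speckles, the bodies where splicing factors gather. RAB11FIP4 binds the small GTPase RAB11 and acts in the traffic of recycling endosomes.

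The sequences at the fullest 5′ ends of each gene show what these piRNAs look like. A 5′ end is called full by the number of distinct sequences that start there and differ in their 3′ end. For each gene the 27-nt sequence is given from the 2 fullest ends, which in all 4 genes began with U, and from the fullest end at another base, which was added after the values were seen. They are written 5′ to 3′ as the list has them, with T for U, the first base in capitals and the position in mm9.
Ankrd11 fullest: Tgaggacaaggtgaagagtaaacacaa (chr8:125417197-125417223, minus strand)
Ankrd11 next: Tgagaataagctgaaggtattgaaaca (chr8:125418871-125418897, minus strand)
Ankrd11 without U: Agagactccggcaagaaagacagcaga (chr8:125416278-125416304, minus strand)
Spen fullest: Tggtacatgaagaagaagaaaatcagg (chr4:141032679-141032705, minus strand)
Spen next: Ttgacctggagaactcgcagaagatca (chr4:141029330-141029356, minus strand)
Spen without U: Acacgcagagctaccggaaacagatgg (chr4:141033662-141033688, minus strand)
Srrm2 fullest: Tgattcttctcctgaacacaagatacc (chr17:23955784-23955810, plus strand)
Srrm2 next: Tgcccaggcatagtagatcaggttcat (chr17:23955825-23955851, plus strand)
Srrm2 without U: Gagtctctcgtagaagccggtctgcct (chr17:23956035-23956061, plus strand)
Rab11fip4 fullest: Tggattgcagataaacaagaggtttta (chr11:79508588-79508614, plus strand)
Rab11fip4 next: Tgacagttggtagaggtgtggcccagg (chr11:79508681-79508707, plus strand)
Rab11fip4 without U: Gaggatgggtaattatgccactgagtg (chr11:79509363-79509389, plus strand)

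The ends printed for Ankrd11, Spen and Srrm2 lie in coding sequence, and those for Rab11fip4 lie in the 3′ UTR. The fullest end of Rab11fip4 held 11 distinct sequences, that of Srrm2 held 9, that of Ankrd11 held 8 and that of Spen held 7. The fullest ends at another base held 7 sequences in Ankrd11, 6 in Spen, 6 in Srrm2 and 7 in Rab11fip4. The Ankrd11 and Spen sequences shown are rich in A and G, with runs such as gaagaagaag in Spen.

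All 4 genes were among the richest sources of MILI-bound sequences. Rab11fip4 gave 4508 sense sequences at 2011 distinct 5′ ends, Ankrd11 3821 at 1996, Srrm2 2483 at 1312 and Spen 2482 at 1413. Among the 924 protein-coding genes with 500 or more sense sequences, Rab11fip4 ranked 6, Ankrd11 8, Srrm2 31 and Spen 33 from the top. Every assigned sense sequence lay on its gene's own chromosome and strand. In mm9 the sequences of Ankrd11 (ENSMUSG00000035569.17) spanned chr8:125407722-125566037 on the minus strand and those of Spen (ENSMUSG00000040761.16) chr4:141023929-141094325 on the minus strand. Those of Srrm2 (ENSMUSG00000039218.17) spanned chr17:23927610-23961527 on the plus strand and those of Rab11fip4 (ENSMUSG00000017639.13) chr11:79404755-79511498 on the plus strand.

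U was the first base of 1777 of the Ankrd11 sequences, or 46.5% (44.9–48.1%), and of 1253 of the Spen sequences, or 50.5% (48.5–52.5%). It was the first base of 2452 of the Rab11fip4 sequences, or 54.4% (52.9–55.9%), and of 1374 of the Srrm2 sequences, or 55.3% (53.4–57.3%). These are exact Clopper-Pearson 95% intervals, here and below, and they cover counting error over distinct sequences only. Across all 924 genes the median share was 69.8%, and 60.0 to 78.5% covered the 5th to the 95th percentile. Counted from the lowest share, Ankrd11 ranked 5, Spen 8, Rab11fip4 11 and Srrm2 14. The 3 lowest genes were the histone gene Hist1h1a with 37.6%, the ferritin heavy chain gene Fth1 with 44.2% and the respiratory chain subunit gene Cox4i1 with 44.8%.

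The transcripts of the 4 genes differed in how much U they hold. U made up 16.3% of the Ankrd11 transcript, the lowest U content of the 924 genes, and 17.2% of the Spen transcript, the fifth lowest. It made up 21.1% of the Srrm2 transcript, which ranked 63 from the lowest, and 23.9% of the Rab11fip4 transcript, which ranked 257. The median gene had 25.8% U, with 20.8 to 30.4% from the 5th to the 95th percentile. U content was under 20% in 2 of the 4 genes, Ankrd11 and Spen, against 3.03% of the 924 genes. The most frequent base differed, as A made up 28.97% of Ankrd11, C 29.9% of Spen, C 28.7% of Srrm2 and G 29.5% of Rab11fip4. For each gene the transcript that matched the most distinct 5′ ends was used (ENSMUST00000172906.7 for Ankrd11, ENSMUST00000105786.2 for Spen, ENSMUST00000190686.6 for Srrm2 and ENSMUST00000017783.12 for Rab11fip4).

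Set against the U content of the whole transcript, the 5′ U share put Rab11fip4 lowest, though not within coding sequence alone, as given below. The ratio of the 2 was 2.94 (2.82–3.06) in Spen, 2.85 (2.75–2.94) in Ankrd11, 2.62 (2.53–2.71) in Srrm2 and 2.27 (2.21–2.33) in Rab11fip4. The interval of Rab11fip4 overlapped no other. The ratio of Ankrd11 takes in sequences from its other transcripts. With sequences on the main transcript only it was 2.62, beside 2.94 in Spen, 2.63 in Srrm2 and 2.27 in Rab11fip4. It was then no higher than that of Srrm2. The median given next counts all sequences of each gene, and no median over main transcripts only was computed. The median gene had a ratio of 2.71, with 2.32 to 3.27 from the 5th to the 95th percentile, and from the lowest up Rab11fip4 ranked 30, Srrm2 354, Ankrd11 621 and Spen 726 of 924. The 5′ U share was at least 2 times the U content in 4 of the 4 genes and in 99.7% of all 924, which sets nothing apart. The 3 lowest ratios belonged to Fth1 (1.86), Cox4i1 (1.99) and Nucks1 (1.99). The ratio can rise higher where U content is low, as in Ankrd11 and Spen, since a share has an upper limit. By the quotient of position use given further below, Ankrd11 ranked 6 and Spen 49 from the lowest.

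**Figure D1:**
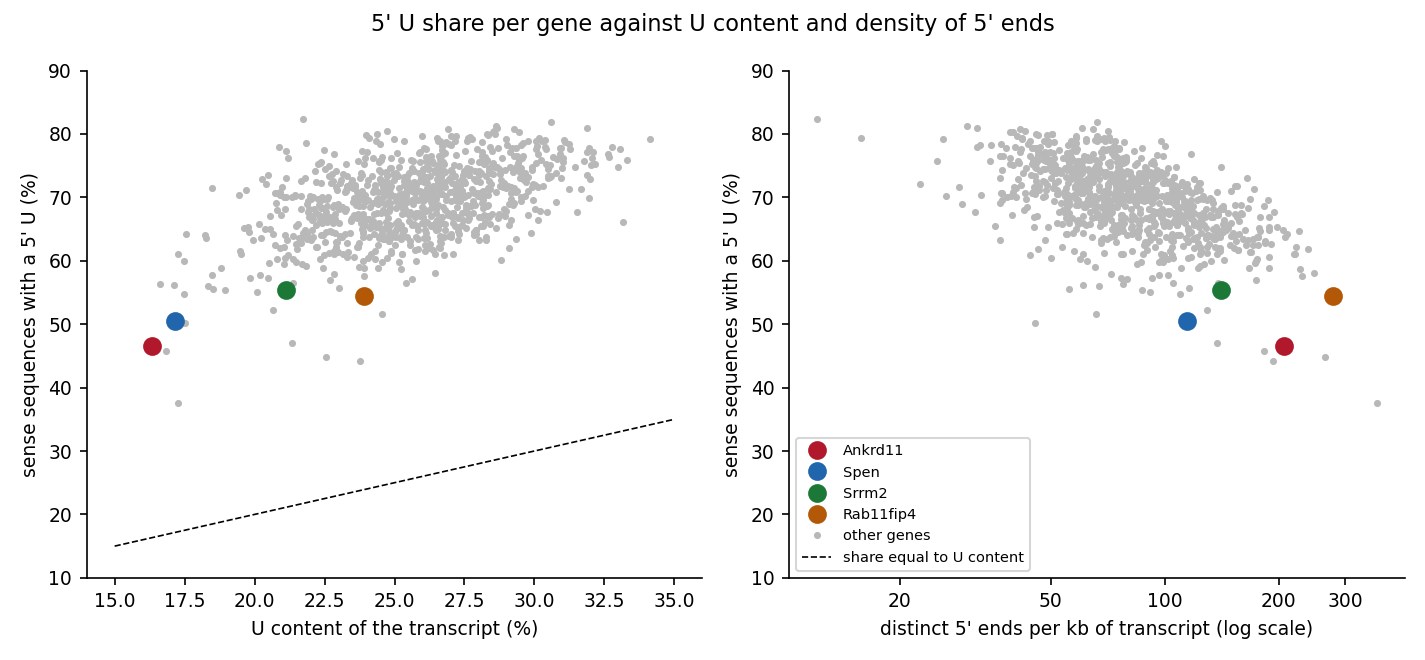
Each point is a protein-coding gene with 500 or more sense sequences; the y axis is the percentage of its sense sequences with a 5′ U, the x axis is the U content of its transcript in percent (left) or its distinct 5′ ends per kb on a log scale (right), and the dashed line on the left marks a share equal to the U content. Ankrd11 (16.3% U) and Spen (17.2% U) sit at the left edge of the left panel, Rab11fip4 (278 ends per kb) near the right edge of the right panel, and all 4 genes lie below most of the others.

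Genes of like U content were set beside each gene. The 6 other genes within 1 percentage point of the U content of Ankrd11 had 5′ U shares of 37.6 to 61.1% with a median of 53.3%, and 2 of them were below Ankrd11. Of the 10 genes within 1 point of Spen, 4 were below Spen, and the median was 55.5%. Srrm2 had 2 of 79 such genes below it and a median of 65.8%, and Rab11fip4 had 2 of 191 below it and a median of 68.7%. All 4 genes were chosen for a low share, so a low place in such a set is a description and not a finding. The nearest genes by U content and 5′ U share together were Otud3, a deubiquitinase gene (16.8% U, 45.8% 5′ U), Prrc2a and Spen for Ankrd11, and Prrc2a (17.5% U, 50.2% 5′ U), Nasp (20.7% U, 52.2% 5′ U) and Ankrd11 for Spen. They were Irf2bpl (20.1% U, 55.1% 5′ U), Mllt6 (21.4% U, 56.4% 5′ U) and Gpatch8 (23.0% U, 55.6% 5′ U) for Srrm2, and Gpatch8, 1810030O07Rik (25.4% U, 56.4% 5′ U) and Fam53b (22.7% U, 57.0% 5′ U) for Rab11fip4.

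Distinct 5′ ends were packed densely on all 4 transcripts. Rab11fip4 had 278 ends per kb, Ankrd11 206, Srrm2 141 and Spen 114, and from the highest they ranked 2, 14, 88 and 196 of 924. The median gene had 77.6 ends per kb. Other genes within 1.2 times the density of Rab11fip4 numbered 3, with a median 5′ U share of 58.1%, and 1 of them was below Rab11fip4. For Ankrd11 there were 36 such genes with a median of 63.4% and 2 below it. Srrm2 had 2 of 134 genes of like density below it and a median of 65.2%, and Spen had 0 of 214 below it and a median of 67.1%. These places, like those by U content, rank the share by which the genes were chosen. The width of this range was chosen after the values were seen, and within 1.5 times the density 4 of 24 genes were below Rab11fip4, 3 of 98 below Ankrd11, 7 of 313 below Srrm2 and 1 of 439 below Spen. Across the 924 genes, which are not independent replicates and share libraries, the 5′ U share went with U content with a Pearson r of 0.508 and a Spearman rho of 0.460. With ends per kb it had an r of −0.567 and a rho of −0.548. U content and ends per kb were themselves nearly unrelated, with an r of −0.0456 and a rho of −0.0380.

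U was the base most used as a 5′ end in each gene, and every other base was used more than in the median gene. A distinct 5′ end was present at 51.6% (49.2–54.0%) of the U positions of Rab11fip4, 40.9% (38.3–43.6%) of those of Ankrd11, 30.3% (28.2–32.4%) of those of Srrm2 and 26.5% (24.6–28.5%) of those of Spen. The median gene had an end at 19.3% of its U positions, and Rab11fip4 ranked 2, Ankrd11 16, Srrm2 106 and Spen 188 from the highest. A was the second most used base in all 4 genes, with ends at 25.1% of the A positions of Rab11fip4, 21.4% of those of Ankrd11, 11.5% of those of Srrm2 and 10.4% of those of Spen, against 4.99% in the median gene. C followed, at 20.8% in Rab11fip4, 15.5% in Ankrd11, 10.3% in Srrm2 and 7.62% in Spen, against 4.13% in the median gene. G was the least used, at 16.2% in Rab11fip4, 12.9% in Ankrd11, 7.14% in Srrm2 and 7.13% in Spen, against 3.15% in the median gene.

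**Figure D2:**
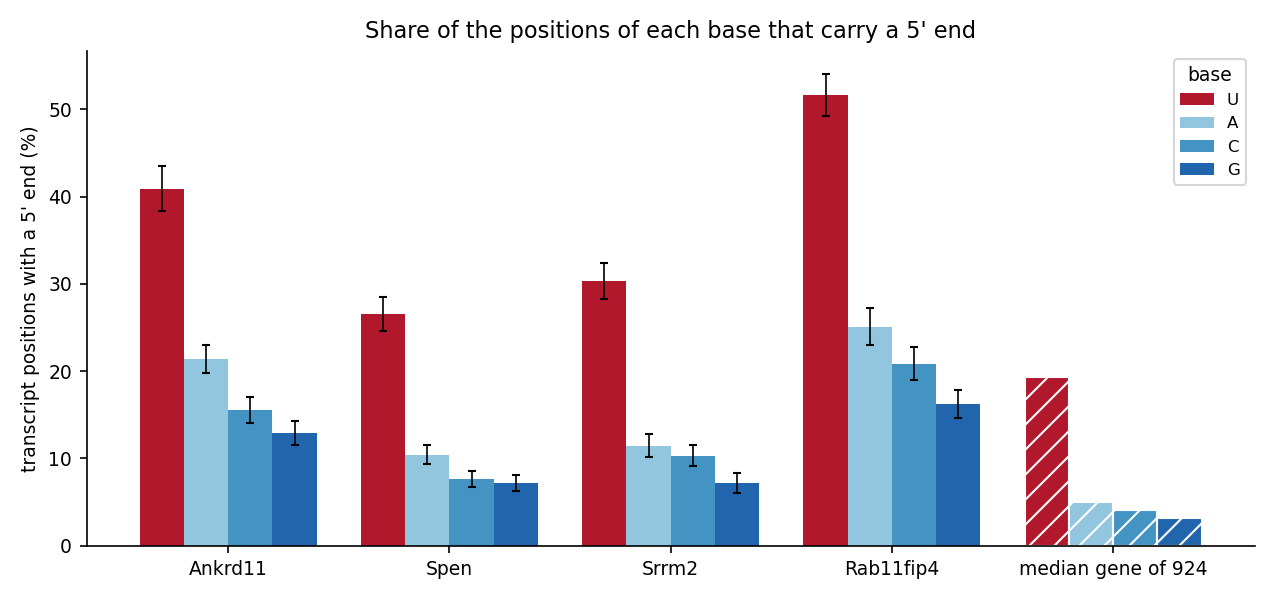
Bars give the percentage of the U, A, C and G positions of each transcript at which a distinct 5′ end was found, with exact 95% intervals for the 4 genes; hatched bars are the medians of the 924 genes. U is the tallest bar in every gene, from 51.6% in Rab11fip4 to 26.5% in Spen, and the A, C and G bars of the 4 genes stand above the hatched bars.

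The share of U positions in use divided by the share of all other positions in use was 3.19 in Spen, 3.11 in Srrm2, 2.55 in Rab11fip4 and 2.46 in Ankrd11. It was above 1 in 4 of the 4 genes and in 100% of the 924 genes, whose median was 4.56 with 3.17 to 6.88 from the 5th to the 95th percentile. From the lowest, Ankrd11 ranked 6, Rab11fip4 8, Srrm2 39 and Spen 49. This quotient is bounded where most U positions are already in use, and it went with ends per kb across genes with an r of −0.648 and with U content with an r of −0.0425. Taken as an odds ratio of use, which has no such bound, it was 4.20 in Rab11fip4, 4.03 in Srrm2, 3.98 in Spen and 3.46 in Ankrd11, against a median of 5.49 (3.92 to 7.94 from the 5th to the 95th percentile). The odds ratio also went with ends per kb, with an r of −0.445 and a rho of −0.453. On that scale Ankrd11 ranked 19 from the lowest, Spen 49, Srrm2 56 and Rab11fip4 74. Among genes of like density 2 of 36 had a lower odds ratio than Ankrd11, 18 of 214 a lower one than Spen, 13 of 134 a lower one than Srrm2 and 2 of 3 a lower one than Rab11fip4. Both measures pool the whole transcript, along which U content and the density of ends vary, and neither was computed by window.

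Ends at U were fuller than ends at other bases. U ends held on average 2.75 distinct sequences in Rab11fip4, 2.59 in Ankrd11, 2.35 in Srrm2 and 2.23 in Spen, whereas ends at A, C or G held 1.39 to 1.91 over the 4 genes. Among ends with a single sequence, 20.6% were at U in Ankrd11, 29.1% in Spen, 31.2% in Rab11fip4 and 33.7% in Srrm2, against a median of 51.1% in the other genes. Among ends with 4 or more sequences, 81.5% were at U in Spen, 77.9% in Srrm2, 69.6% in Rab11fip4 and 68.9% in Ankrd11, against a median of 90.9% in the other genes. The 5′ U share was higher at each step from 1 to 4 or more sequences in all 4 genes. Ends with 4 or more sequences numbered 381 in Rab11fip4, 225 in Ankrd11, 149 in Srrm2 and 135 in Spen.

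**Figure D3:**
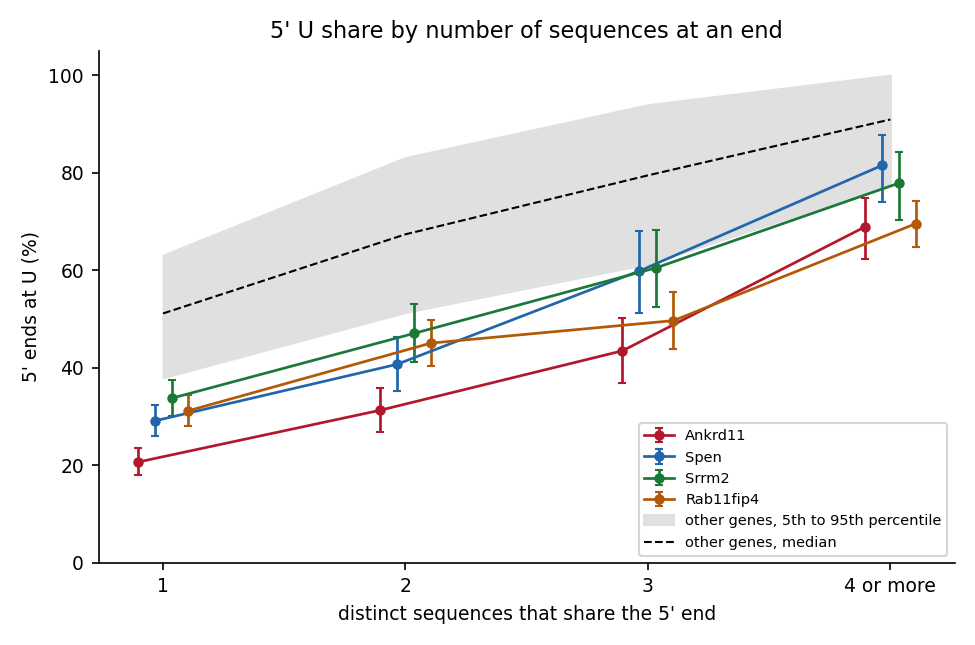
The y axis is the percentage of 5′ ends at U and the x axis the number of distinct sequences that start at the end, with exact 95% intervals for the 4 genes, and for the other genes the median (dashed) and the 5th to 95th percentile (grey). All 4 lines climb from single-sequence ends (20.6% in Ankrd11) to ends with 4 or more (81.5% in Spen) and stay under the dashed line.

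Whether the genes were rich in coding sequence depended on the gene. On the protein-coding transcript, coding sequence held 99.5% of the Srrm2 sequences, 98.1% of the Ankrd11 sequences and 96.4% of the Spen sequences. It held 20.3% of the Rab11fip4 sequences, while the 3′ UTR held 79.7% of them, so the description as coding-rich does not hold for Rab11fip4. Read on each gene's transcript with the most ends, whatever its type, the median gene had 20.001% of its sequences in coding sequence. By that reading Rab11fip4 ranked 444 from the highest of the 902 genes with a value, and Ankrd11 had 1.66% and ranked 883. Coding sequence took up 93.8% of the Ankrd11 transcript, 91.5% of the Srrm2 transcript, 88.9% of the Spen transcript and 26.7% of the Rab11fip4 transcript. For Ankrd11 the regions were read on ENSMUST00000098334.12, because the transcript with the most ends is annotated as a target of nonsense-mediated decay and carries a coding frame of 294 nt only.

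The coding part of Rab11fip4 was as low in U as those of Ankrd11 and Spen. It held 16.3% U, beside 16.2% in Ankrd11, 16.6% in Spen and 20.7% in Srrm2. In Rab11fip4 45.1% (41.9–48.5%) of the sequences from the coding part began with U, as did 42.2% (40.5–43.9%) of those of Ankrd11, 49.7% (47.7–51.7%) of those of Spen and 55.4% (53.4–57.5%) of those of Srrm2. In its 3′ UTR, which held 26.9% U, the share was 56.7% (55.1–58.3%) over 3561 sequences. The 3′ UTRs of the other genes gave few sequences, 88 in Spen, 55 in Ankrd11 and 10 in Srrm2, with 5′ U shares of 70.5% (59.8–79.7%), 76.4% (63.0–86.8%) and 80.0% (44.4–97.5%) in that order of genes. The 5′ UTRs gave 10 sequences in Ankrd11, 2 in Srrm2, 1 in Spen and 1 in Rab11fip4.

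Rab11fip4 was denser in its 3′ UTR than in its coding sequence, and the other genes were denser in coding sequence. Distinct ends per kb numbered 302 in the 3′ UTR of Rab11fip4 and 222 in its coding part. For Ankrd11 the 3′ UTR had 94.2 and the coding part 215, for Spen 59.1 and 123, and for Srrm2 9.78 and 153. In Srrm2 the last part of the messenger RNA was almost free of ends, while in Rab11fip4 the 3′ UTR taken whole was the densest region.

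In each gene a single very long exon held most of the ends. It was exon 11 of 15 in Srrm2, with 95.8% of the ends on 74.1% of the nucleotides. In Spen it was exon 12 of 16, with 87.7% of the ends on 65.2% of the nucleotides, and in Ankrd11 exon 9 of 13, with 87.6% on 76.9%. In Rab11fip4 it was the last exon, 15 of 15, which is nearly all 3′ UTR, with 80.2% on 74.1%. These exons measured 8020 nt in Spen, 6569 nt in Srrm2, 6518 nt in Ankrd11 and 5301 nt in Rab11fip4. In the median gene of the 924 the exon with the most ends held 84.5% of them, and the median share of nucleotides was 73.4%. From the lowest share of ends, Rab11fip4 ranked 358, Ankrd11 543, Spen 549 and Srrm2 809. The exon with the most ends measured 5000 nt or more in 4 of the 4 genes, against 35.9% of the 924 genes.

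The long exons were denser than the rest of their transcripts on average. Ankrd11 had 235 ends per kb inside its long exon and 111 elsewhere, Spen 154 and 40.4, Srrm2 182 and 22.7, and Rab11fip4 301 and 212. No listed sequence crosses an exon junction, since each carries 1 unbroken genome position, and 94.6 to 96.6% of the positions of the 4 transcripts leave room for 27 nt within an exon. Base content moved with the exon in some genes. The long exon of Spen held 15.4% U, against 20.5% in the rest, and that of Ankrd11 15.7%, against 18.3%. In Srrm2 both parts held 21.1%, and the long exon of Rab11fip4 held 26.7%, against 15.8%. The share of distinct ends at U inside and outside the exon was 37.03% and 59.5% in Spen, 30.0% and 49.3% in Ankrd11, 45.5% and 44.2% in Srrm2, and 48.0% and 30.2% in Rab11fip4. In Spen, Ankrd11 and Rab11fip4 the part with less U also had the lower share of ends at U.

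**Figure D4:**
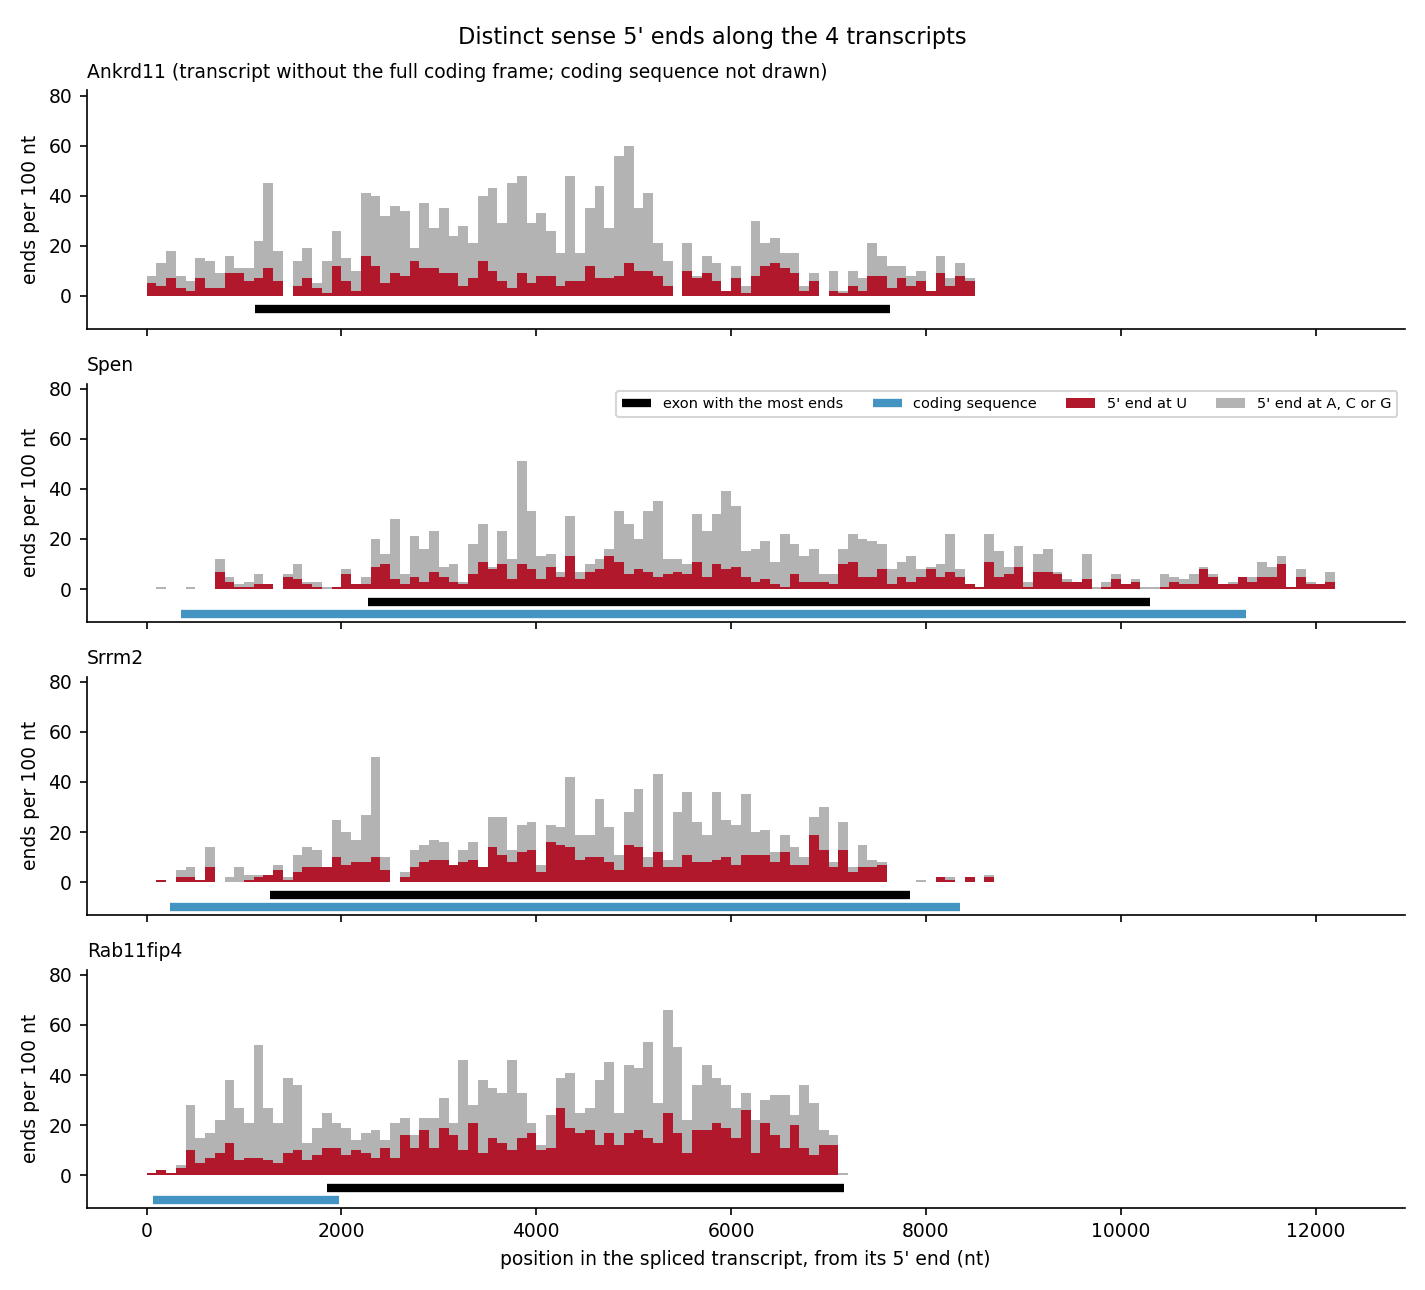
Stacked bars count distinct 5′ ends per 100 nt along each spliced transcript (x axis in nt from its 5′ end), red at U and grey at A, C or G; the black line marks the exon with the most ends and the blue line the coding sequence. Most ends of Srrm2 lie within its long exon (95.8%), with none from nt 7601 to the end of that exon, and in Rab11fip4 they run through the 3′ UTR.

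Windows of 500 nt showed the same relation within each transcript. Ends at U exceeded the U content in 16 of 16 windows of Ankrd11, 17 of 17 of Srrm2, 14 of 14 of Rab11fip4 and 23 of 24 of Spen. U content ranged from 9.0 to 22.2% over the windows of Ankrd11, from 9.8 to 26.2% over those of Spen, from 11.4 to 26% over those of Srrm2 and from 12.6 to 31.6% over those of Rab11fip4. Over windows with at least 20 ends, the Spearman rho of U content with the share of ends at U was 0.864 in Srrm2 (13 windows), 0.825 in Spen (19), 0.811 in Ankrd11 (16) and 0.740 in Rab11fip4 (14). Over all windows, the rho of U content with the number of ends was −0.565 in Ankrd11, −0.408 in Spen, −0.211 in Srrm2 and 0.267 in Rab11fip4. Ends were thus more numerous in windows with less U in Ankrd11 and Spen, and the part of this in their transcript-wide values was not tested. Windows of a transcript share libraries and base composition, so these values are descriptions.

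In the densest windows more U positions than not carried an end. The fullest window of Ankrd11, from nt 4501 to 5000, held 222 ends, and 83.9% of its U positions carried one. Its U content was 11.2%, and 21.2% of its ends were at U. The window of Ankrd11 with the least U, from nt 3501 to 4000, had 9.0% U, with ends at 73.3% of its U positions and 17.01% of its ends at U. Both windows lie in the coding sequence of the long exon. The fullest window of Rab11fip4, from nt 5001 to 5500, held 242 ends at 24% U, with an end at 73.3% of its U positions and 36.4% of ends at U. The fullest windows of Spen and Srrm2, both from nt 5501 to 6000, held 132 and 140 ends, at 14.4% and 18% U, with an end at 55.6% and 51.1% of their U positions and 30.3% and 32.9% of ends at U.

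**Figure D5:**
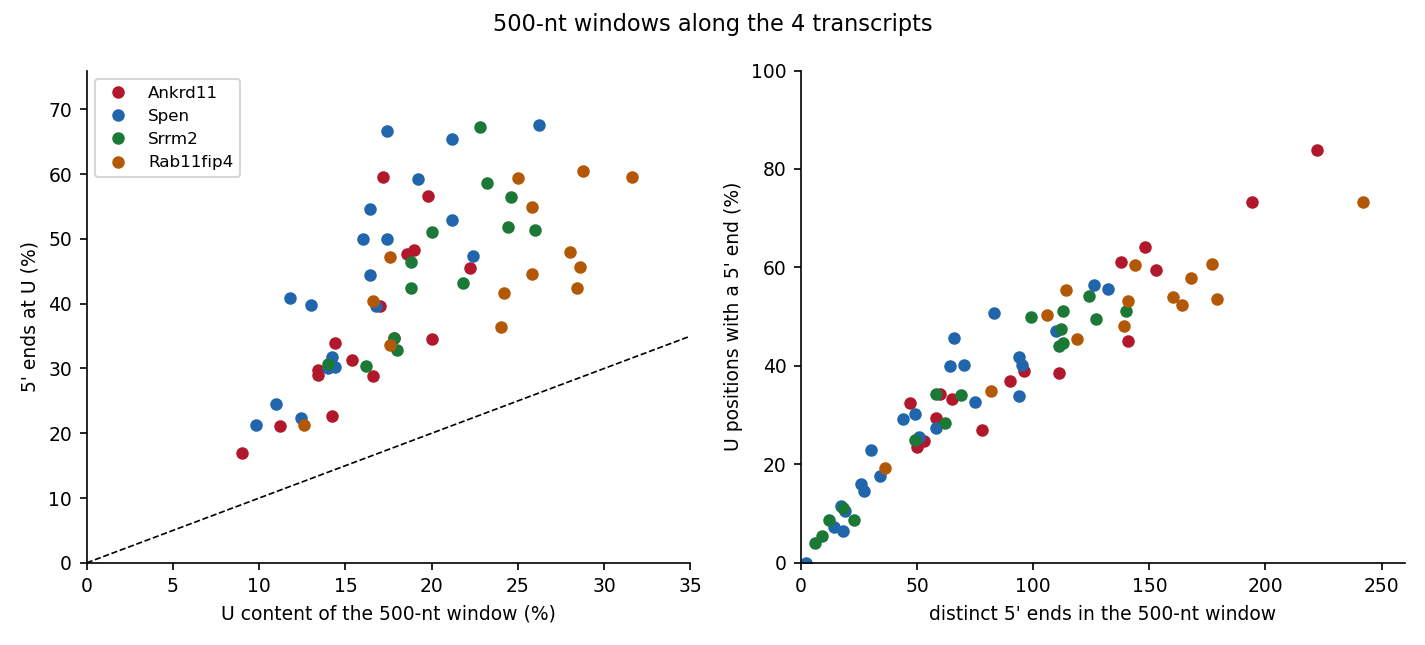
Each point is a 500-nt window of a transcript; the left panel sets the percentage of distinct ends at U against the U content for windows with at least 20 ends, with a dashed line where both are equal, and the right panel sets the percentage of U positions with an end against the number of ends for all windows. All points on the left lie above the line, and on the right the fullest window of Ankrd11 (222 ends) reaches 83.9% of its U positions.

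Within the codon, the position richest in U held the most ends, but ends did not follow U throughout. In Srrm2 codon position 3 held 29.9% U and 38.3% (35.6–41.1%) of the coding ends. Its position 1 held 20.97% U and 30.8% of the ends, about as many as position 2, which held 11.1% U and 30.9% of the ends. In Spen position 3 held 19.9% U and 37.5% (34.9–40.2%) of the ends, against 11.7% U and 30.0% at position 1. In Rab11fip4 it was position 2, with 24.5% U and 38.9% (34.2–43.7%) of the ends, against 31.1% of the ends at position 3. Ankrd11 showed little phase, with 31.9%, 34.4% and 33.6% of its ends at codon positions 1, 2 and 3, which held 14.3%, 17.4% and 16.8% U.

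The base at the first position restates, for distinct ends, the value that chose the genes. U stood there at 45.4% of the ends in Srrm2, 44.5% in Rab11fip4, 39.8% in Spen and 32.4% in Ankrd11, against 61.0 ± 6.60% (SD over 920 genes) in the other genes. G stood there at 17.7% in Ankrd11, 17.3% in Spen, 17.2% in Rab11fip4 and 11.9% in Srrm2, against 10.1 ± 2.60% (SD over 920 genes), and in Srrm2 it lay within 1 SD of the mean. At position 5, A stood at 37.8% of the Ankrd11 ends, 34.5% of the Spen ends, 34.1% of the Srrm2 ends and 28.8% of the Rab11fip4 ends, against a mean of 33.7%. Just before the end, G stood at 24.2% in Rab11fip4, 23.3% in Spen, 22.3% in Ankrd11 and 17.9% in Srrm2, against a mean of 18.1%.

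Ends at other bases were often next to a used U. In Rab11fip4, 54.8% of the 1104 ends at A, C or G had a U with an end of its own within 2 nt, against 36.9% of all its A, C and G positions. The share was 53.0% of 681 such ends in Srrm2, against 21.8% of positions, 37.2% of 847 in Spen, against 15.8%, and 35.7% of 1182 in Ankrd11, against 21.4%. Density varied along each transcript, as the map of ends shows, and its part in this difference was not tested.

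At the other end of the sequences the genes fell into pairs when set against the U content of the whole transcript. U was the base after the 3′ end in 14.2% (13.1–15.4%) of the Ankrd11 sequences and 14.9% (13.5–16.3%) of the Spen sequences, which is 0.8703 and 0.8662 times their U content. It was the base there in 25.6% (23.9–27.4%) of the Srrm2 sequences and 25.9% (24.7–27.3%) of the Rab11fip4 sequences, or 1.22 and 1.08 times their U content. U after the 3′ end was more frequent than in the transcript in 2 of the 4 genes, against 60.0% of the 924 genes, whose median ratio was 1.03. From the lowest, Spen ranked 44, Ankrd11 50, Rab11fip4 671 and Srrm2 900. These ratios use the U content of the whole transcript. The long exons with most of the ends held 15.7% U in Ankrd11, 15.4% in Spen, 21.1% in Srrm2 and 26.7% in Rab11fip4. Beside that content, the shares after the 3′ end were lower in Ankrd11, Spen and Rab11fip4 and higher only in Srrm2. The part of this local content in the ratios was not tested.

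Length was alike in the 4 genes. The mean was 27.3 nt in Srrm2, 27.1 nt in Ankrd11, 26.96 nt in Spen and 26.9 nt in Rab11fip4, with SDs of 1.39 to 1.61 nt, and the most frequent length was 27 nt in each. The 5′ U share took its lower values near the middle of the length range. At 24 nt, with 34 to 127 sequences a gene, it was 70.6% (52.5–84.9%) in Srrm2, 66.9% (58.0–75.02%) in Rab11fip4, 61.0% (47.4–73.5%) in Ankrd11 and 59.2% (44.2–73.0%) in Spen. At 26 nt it was 50.3% (45.9–54.7%) in Srrm2, 50.6% (47.5–53.6%) in Rab11fip4, 41.1% (37.9–44.4%) in Ankrd11 and 47.0% (43.0–51.0%) in Spen. At 30 nt it was 72.0% (63.9–79.2%) in Srrm2, 70.3% (62.9–76.9%) in Rab11fip4, 67.5% (58.5–75.5%) in Ankrd11 and 63.0% (50.9–74.0%) in Spen. The intervals at 26 and 30 nt did not overlap in Srrm2, Rab11fip4 or Ankrd11, and overlapped slightly in Spen.

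Ankrd11 also had sequences outside its main transcript, and more of these began with U. There were 389 sequences at 247 ends on other transcripts of the gene, and 78.7% (74.3–82.6%) of them had a 5′ U. On the main transcript 42.9% (41.2–44.5%) of 3432 sequences had one. The other genes had fewer such sequences. A 5′ U was found in 48.2% of the 85 in Srrm2, in 57.5% of the 40 in Rab11fip4 and in 6 of the 8 in Spen.

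Antisense sequences came almost entirely from Ankrd11, which had 178 at 133 distinct ends and ranked 10 of 924 from the highest. Spen had 8, Rab11fip4 7 and Srrm2 2, and the median gene had 2. The antisense sequences of Ankrd11 spanned chr8:125407753-125432527 in mm9, and 73.6% (66.5–79.9%) of them had a 5′ U. A further 129 sense sequences of Ankrd11 were set aside because they also matched the antisense strand of Gm45894, a long non-coding RNA gene, and 17 antisense sequences were set aside because they also matched another gene in sense. Pairs of opposite ends that overlapped by 10 nt, the ping-pong distance, numbered 16 in Ankrd11, against a mean of 11.1 and a highest count of 17 at the other overlaps from 1 to 20 nt. Rab11fip4 had 2 such pairs, and Spen and Srrm2 had 1 each. A stood at position 10 in 36.6% of the sense sequences of Ankrd11, 36.05% of those of Srrm2, 32.1% of those of Spen and 27.02% of those of Rab11fip4, against a median of 30.2%, and from the highest Ankrd11 ranked 37, Srrm2 50, Spen 265 and Rab11fip4 810. A was as frequent elsewhere in the sequences. Over distinct ends, A at positions 5 and 10 was 37.8% and 35.6% in Ankrd11 and 34.1% and 32.9% in Srrm2. It was 34.5% and 30.6% in Spen and 28.8% and 26.7% in Rab11fip4.

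Relatives of the 4 genes did not share a single pattern. Ankrd12, the paralog of Ankrd11, had 484 sense sequences, 70.7% (66.4–74.7%) with a 5′ U, on a transcript with 25.8% U. In the Spen family, Rbm15 had 846 sequences with 67.7% at 22.5% U and Rbm15b 913 with 70.1% at 21.3% U. Among genes for serine- and arginine-rich nuclear proteins, Srrm1 had 180 sequences with 49.4% (41.9–57.0%) at 20.7% U and Pnn 111 with 48.6% (39.0–58.3%) at 24.2% U, and the intervals of both overlapped that of Srrm2. Son, a speckle scaffold gene with 1271 sequences, had 66.4% (63.7–69.0%) at 23.98% U, and Acin1 had 253 with 62.5% (56.2–68.4%) at 17.1% U. Srrm3 and Srrm4 had 14 and 17 sequences, with 85.7% (57.2–98.2%) and 88.2% (63.6–98.5%) at a 5′ U. The intervals of Acin1 and Srrm3 also overlapped that of Srrm2, and those of Son and Srrm4 did not. Where computed, these relatives had from 25.5 (Pnn) to 96.0 (Rbm15) ends per kb, against 206 in Ankrd11, 114 in Spen and 141 in Srrm2.

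The 4 other genes of the RAB11-binding family searched all had a higher 5′ U share than Rab11fip4, which was chosen for a low one. Rab11fip1 had 715 sequences with 66.6% at a 5′ U, Rab11fip2 260 with 81.2%, Rab11fip3 383 with 65.3% and Rab11fip5 115 with 71.3%. Their transcripts held 24.1%, 29.4%, 18.9% and 20.8% U in the same order. They were far less dense, with 55.4, 32.4, 46.6 and 15.7 ends per kb, against 278 in Rab11fip4. Rab11fip3 held less U than Rab11fip4 and had the higher 5′ U share, a contrast on which the choice of Rab11fip4 also bears. For scale, the sequence-rich genes Abl2 and Cbx5 had 5739 sequences with 61.8% at 25.8% U and 3643 with 67.6% at 31.5% U, and Tdrd9 itself had 137 with 81.0% (73.4–87.2%) at 24.5% U.

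The list held sequences of all 6 germ cell marker genes searched (Ddx4, Dazl, Stra8, Sycp3, Sycp1 and Piwil2), with 140 to 452 each. Of the spermatid markers Prm1 and Prm2 had 0 and Tnp1 had 19. The Sertoli cell markers Sox9, Amh and Gata4 had 7 to 27 each, and of the Leydig cell markers Star had 247 while Cyp17a1 and Insl3 had 0. As abundance is not recorded, these numbers name genes seen and do not weigh cell types.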

How the data were processed

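The authors' deposited table lists, per the file headers, a sequence, chromosome, start, end and strand for each row, with no score, count or library. Per the submitters' processing notes, its genome build is mm9. How reads were filtered or aligned is not stated in the labels. Each sequence occurs once, so abundance is unknown.

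Sequences were matched exactly to 141767 GENCODE M21 transcripts in sense and antisense. Sense sequences kept for a gene matched no other gene on either strand. Coding limits and exons came from the same annotation, a GRCm38 one, without converting any position. Positions were read on the transcript with the most distinct 5′ ends, and the ranks are among 924 of 21951 protein-coding genes, those with at least 500 sense sequences. Of the transcript positions of the 4 genes, 94.0 to 99.6% begin a 27-mer found in that gene only. The match and base-use steps were tested on simulated data. No test was run, and the planned values per library could not be had. The members, related genes and lists were chosen with earlier results of these data known. Besides them the text names, by rule, the 3 genes nearest each member, those lowest in 5′ U share or ratio, Tdrd9, Abl2 and Cbx5. Gm45894 was named after its values were seen. Versions were scipy 1.17.1, pandas 2.3.3, numba 0.67.0, numpy 2.4.6 and Python 3.11.15, with figures drawn by matplotlib 3.10.9.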

Additional observations from a re-analysis of the deposited data

How the results depend on the processing

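The lowest ratio of 5′ U share to U content under any alternative was 1.86, so none fell to 1. Of 76 alternative values for the shares, ratios and relative uses of U, 50 stayed within the interval of the value reported and 26 moved; the order of genes below is Ankrd11, Spen, Srrm2 and Rab11fip4. Counting each 5′ end once gave 5′ U shares of 36.97, 39.9, 45.7 and 44.6% and ratios of 2.26, 2.32, 2.16 and 1.86. Keeping ends with 2 or more sequences gave shares of 54.0, 61.0, 63.4 and 59.9%, ratios of 3.30, 3.55, 3.01 and 2.50, and relative uses of U positions of 4.04, 5.82, 5.24 and 3.81. Both follow from U ends holding more sequences. Odds of use, chosen after seeing the data, gave 3.46, 3.98, 4.03 and 4.20. With sequences on the main transcript only, also chosen afterwards, the ratio of Ankrd11 was 2.62. The gene median of 2.71 counts all sequences of each gene and was not computed in that way. With U content weighted by region the ratio of Rab11fip4 was 2.20. Among genes with 100 or more sequences the U content of Srrm2 stood at percentile 14.0 in place of 6.82, and that of Rab11fip4 at 40.5 in place of 27.8; the 5′ U share of Srrm2 stood at 6.32 in place of 1.52 and that of Rab11fip4 at 5.37 in place of 1.19, outside the lowest 5%. No paired analysis was possible because the table names no library, and leaving out replicates could not be run. Depth is unknown, and a longer list would fill more positions of every base.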
